A study of Mus musculus with 9 samples.

Results

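The gene Trp53, which encodes p53, and 9 of its known direct targets were followed in MC38-P, the parental line, and in MC38-LM3a and MC38-LM3b, which were derived from its liver metastases. The targets were Cdkn1a, Mdm2, Ccng1, Zmat3, Trp53inp1, Phlda3, Aen, Gdf15 and Btg2. These 10 members were taken by gene symbol from the 16399 genes listed for each library, and each was listed once. MC38-P is a mouse colon carcinoma line that carries a GFP and firefly luciferase reporter. The study describes the derivatives as independently derived lines of the third generation. They came from MC38-P through 3 rounds of intrasplenic injection into C57BL/6 mice with a working immune system. Tumor cells were recovered from the liver in each round. Whether the derivatives share earlier rounds was not examined here. All groups are untreated cells grown in culture and all descend from the reporter line, with 3 replicates per line and 9 poly(A) RNA libraries in all. Each derivative is 1 selected line, so a difference from MC38-P describes that line, and the replicates measure the spread between its cultures rather than between selections. Values are TPM, the transcript abundance of a gene corrected for its length and scaled to the same total in every library.

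p53 is a transcription factor that is held at a low level in unstressed cells, mainly because the ubiquitin ligase MDM2 marks it for degradation. DNA damage and other stress stop this degradation, and the stabilised protein binds paired half-sites in the DNA and switches on genes for cell cycle arrest, DNA repair, apoptosis and its own negative feedback. p53 is regulated largely at the protein level, so the transcript of Trp53 and those of its targets are separate readouts, and p53 protein was not analysed here. In colorectal cancer, loss of p53 function is a frequent step of progression.

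The sequence by which p53 recognises a target is shown first, for the members in whose promoters it was found. A p53 response element was searched as 2 half-sites in a row without a spacer, each of 10 bases made of 3 purines, a C, 2 bases that are A or T, a G and 3 pyrimidines. The element reads the same on both strands. All 4 fixed C and G bases had to be present, and up to 2 of the other bases could differ. RefSeq promoter windows of GRCm38.p6, from 250 bases before to 50 bases after a start site, were matched for 8 of the 10 members, in 11 windows. An element was present in 1 window of Cdkn1a and in the window of Ccng1, whereas 0.326% of all 32851 promoter windows held one. Each element had 1 base outside the pattern, a level of match found in 0.067% of all windows. The bases of the element are in capitals.

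Cdkn1a (chr17:29090923-29090952, plus strand): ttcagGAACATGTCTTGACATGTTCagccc
Ccng1 (chr11:40755457-40755486, minus strand): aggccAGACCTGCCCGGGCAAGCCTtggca

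The Cdkn1a element lies 51 to 32 bases before the upstream of the gene's 2 start sites, and the Ccng1 element lies 195 to 176 bases before its start site. In the windows of Trp53, Mdm2, Phlda3, Aen, Gdf15 and Btg2 these letters were not found. The window says nothing of elements elsewhere in a gene, and the p53-responsive promoter of Mdm2 is known to lie in its first intron. Zmat3 and Trp53inp1 were not searched.

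The libraries were alike, with a Pearson correlation across genes between 0.969 and 0.997 for every pair and between 10875 and 11218 genes at 1 TPM or more. Read counts were not part of the files, and the depth is unknown. The libraries differed in how abundance varied with transcript length. Across 11096 genes, each library was set against the mean of the other libraries of its line. This deviation followed transcript length with a Spearman correlation of 0.51, 0.41 and -0.62 in MC38-P replicates 1, 2 and 3. It was -0.55, -0.51 and 0.64 in the MC38-LM3a replicates, and between -0.01 and 0.02 in those of MC38-LM3b. Replicate 3 of MC38-P and replicate 3 of MC38-LM3a thus ran against the other libraries of their line. These values compare replicates within a line only. Between lines, length and log2 fold change correlated at -0.11 for MC38-LM3a and 0.22 for MC38-LM3b, each against MC38-P. For MC38-LM3b against MC38-LM3a the correlation was 0.61. Each member is therefore given on the deposited values and with a correction for transcript length and GC content, and the corrected counts of the p53-related gene lists stand beside the deposited ones. The label of epithelial cells was checked against 7 markers. The keratin genes Krt8 and Krt18 were abundant, Krt8 between 744 and 1206 TPM, while the cell adhesion gene Cdh1 did not exceed 0.08 TPM in any library. The summed epithelial markers ranged from 2002 to 2317 TPM in the parental line, from 1590 to 1810 in MC38-LM3a, then from 1583 to 1628 in MC38-LM3b. Of the 5 tested epithelial markers 4 were lower in both derivatives by the model described further on, before and after the correction, beside 13.8% and 11.2% of all genes lower on deposited values. On the scale of that model, Epcam, a cell adhesion gene, had the largest fall averaged over both comparisons (-1.14 and -1.07). The marker Cdx2 fell less than Epcam in MC38-LM3a on this scale, but more in MC38-LM3b (-1.20). By mean TPM, Cdx2 fell more in proportion in both, from 2.27 in MC38-P to 0.63 and 0.41. Epcam went from 5.76 to 2.05 and 2.21 TPM. The keratin gene Krt19 was higher in MC38-LM3a (0.39, adjusted p = 0.00358) and not called in MC38-LM3b. Between the derivatives Krt19 was called lower in MC38-LM3b after the correction (-0.51, adjusted p = 0.0275). Krt8 (-0.48 and -0.56) and Krt18 (-0.24 and -0.32) lie on chromosome 15, where the median of the other tested genes was -0.54 and -0.31. Summed hepatocyte markers did not exceed 0.89 TPM and T cell markers 0.22 TPM. Of the macrophage markers only Cd68 reached 1 TPM, at 28.8 ± 0.936 (SD, n = 3), 36.6 ± 3.77 and 43.4 ± 3.24 TPM in the 3 lines, while Csf1r, Lyz2 and Itgam stayed at or below 0.28 TPM.

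Most of the p53 targets were more abundant in the liver metastatic derivatives than in MC38-P, while Trp53 itself was not called different on the deposited values. A limma model was fitted to log2(TPM + 1) of the 11287 genes that reached 1 TPM in 3 or more libraries, and a gene was called at a Benjamini-Hochberg adjusted p under 0.05. All 10 members passed the filter, and each was above 1 TPM in all 9 libraries. In MC38-LM3a, 6 members were called against MC38-P, where 28% of all tested genes were called. Of them 5 were higher (Cdkn1a, Mdm2, Ccng1, Trp53inp1 and Phlda3) and 1 was lower (Gdf15), against 14.1% higher and 13.8% lower over all genes. In MC38-LM3b, 8 members were called, where 46.7% of all genes were. The same 5 genes together with Zmat3 and Btg2 made 7 higher members, and Gdf15 was again the lower one, against 35.6% higher and 11.2% lower over all genes. The plot of TPM by library shows the levels behind these calls.

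**Figure D1:**
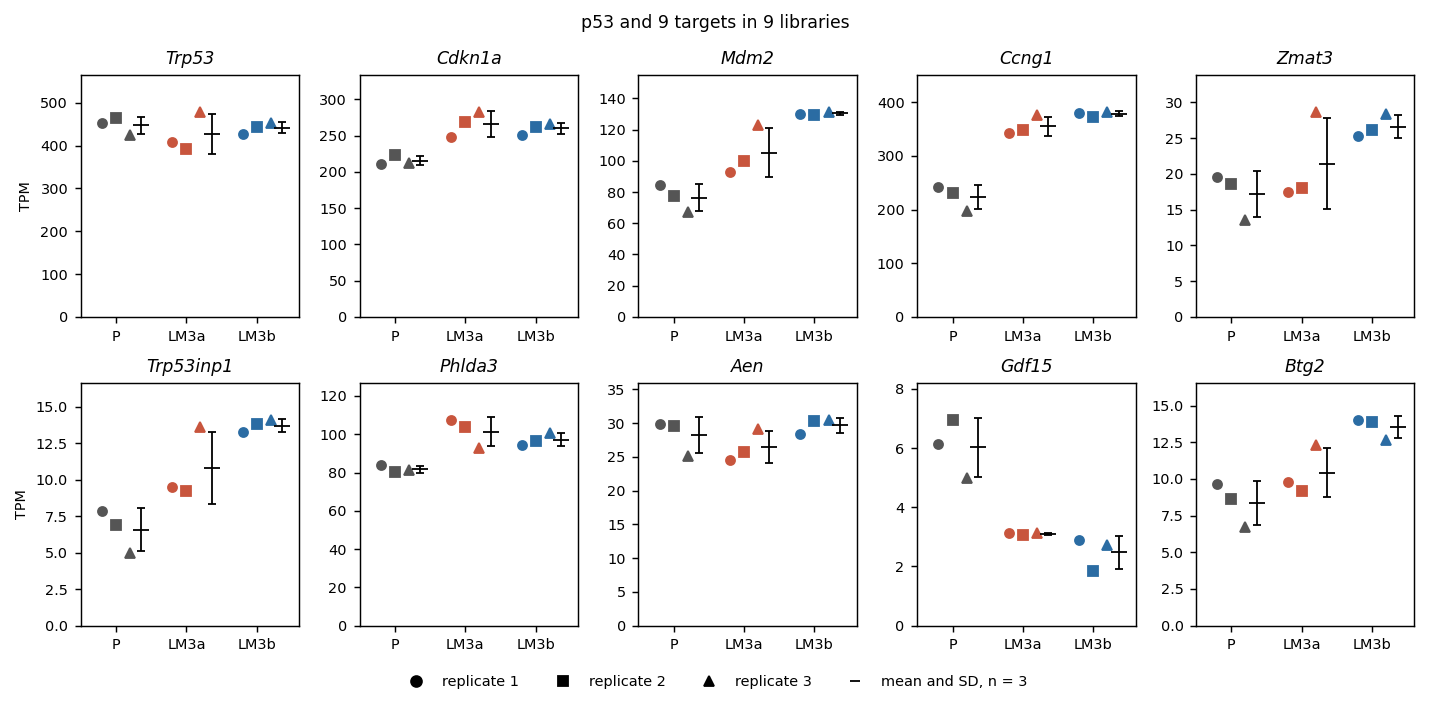
TPM of Trp53 and 9 targets in each library of MC38-P and both derivatives, with 1 point per replicate and the mean and SD of 3 replicates at the right of each group. Ccng1 lies between 198 and 242 TPM in MC38-P and between 342 and 383 TPM in the derivatives, whereas the groups of Trp53 overlap.

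The TPM ranges of derivative and parental libraries did not overlap for 6 members in MC38-LM3a and for 8 in MC38-LM3b, where 36.2% and 66.7% of all tested genes did not overlap. The changes were moderate. With the study's additional limit of an absolute log2 fold change above 1, no member was a differentially expressed gene in MC38-LM3a (2.89% of all genes were), while in MC38-LM3b only Gdf15 was (3.93% of all genes). Trp53inp1 in MC38-LM3b was just below this limit on the log2(TPM + 1) scale, at 0.98, with a ratio of mean TPM of 2.09. The median log2 fold change of the members was 0.30 in MC38-LM3a, against 0.44 in MC38-LM3b. Over all tested genes the median was 0.00 in MC38-LM3a but 0.21 in MC38-LM3b, so a rise in MC38-LM3b has to be read against this general shift. Both comparisons share the MC38-P libraries and are not independent of each other. In bulk RNA, a change in the share of cells that express a gene and a change in RNA per cell cannot be told apart.

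After the correction for length and GC content, which also removed the general shift (median 0.01 in both comparisons), 8 members were called in MC38-LM3a, 7 higher and 1 lower, and all 10 in MC38-LM3b, 7 higher and 3 lower. The corrected values gave calls for 51.1% of all genes in MC38-LM3a, 26.5% higher and 24.6% lower, and for 57.6% in MC38-LM3b, 29.3% higher and 28.3% lower. The median corrected change of the members was 0.32 in MC38-LM3a, against 0.30 in MC38-LM3b. The 7 higher members were the same in both comparisons, namely Cdkn1a, Mdm2, Ccng1, Zmat3, Trp53inp1, Phlda3 and Btg2.

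**Figure D2:**
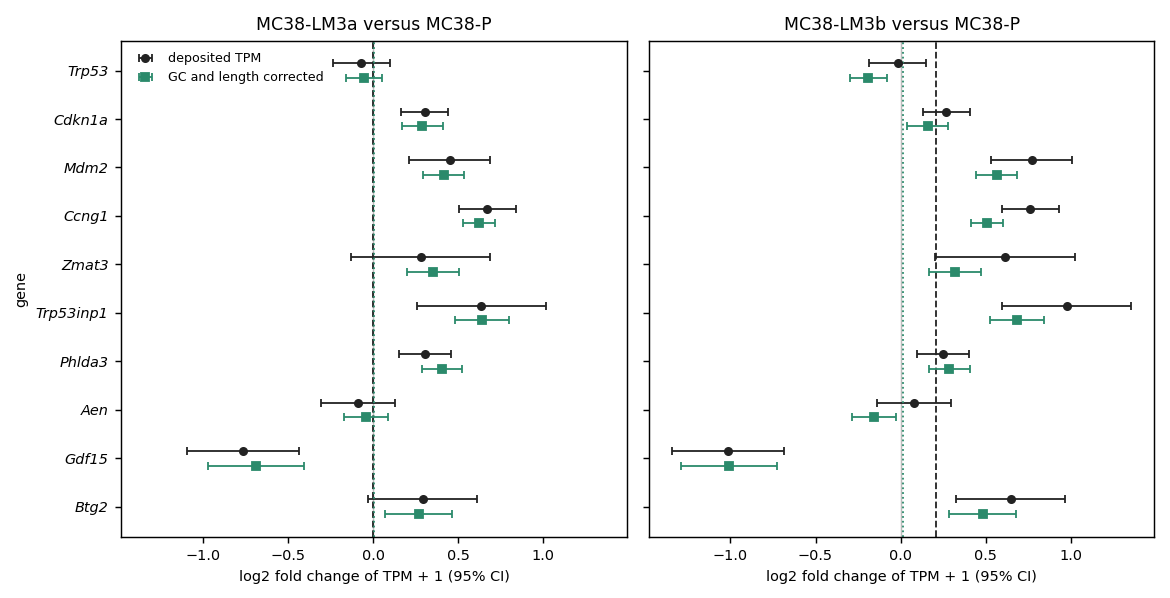
Log2 fold change of TPM + 1 with its 95% confidence interval from limma for each member, in MC38-LM3a and MC38-LM3b against MC38-P, on deposited values (circles) and after GC and length correction (squares). Dashed and dotted lines mark the median of all tested genes on deposited and corrected values, which is 0.21 on deposited values in MC38-LM3b.

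Trp53 lies on chromosome 11 (GRCm38, 69580359 to 69591873, plus strand) and was the most abundant member in every library. Its level was 452, 465 and 425 TPM in the MC38-P replicates, 409, 393 and 480 TPM in MC38-LM3a, and 428, 444 and 453 TPM in MC38-LM3b. The 3 groups overlapped, and the highest and the lowest values were both MC38-LM3a libraries. Its log2 fold change against MC38-P was -0.07 in MC38-LM3a (95% CI -0.24 to 0.10, adjusted p = 0.547), against -0.02 in MC38-LM3b (95% CI -0.18 to 0.15, adjusted p = 0.861). After the correction the value in MC38-LM3b was -0.19 ± 0.05 (SE, adjusted p = 0.00642), and that in MC38-LM3a was -0.05 (adjusted p = 0.396). A rise of Trp53 was therefore not called in either derivative, and whether it was lower depended on the processing. With median centring it was lower in MC38-LM3b (-0.24, adjusted p = 0.0129). In MC38-LM3a it was lower without MC38-LM3a replicate 3 (-0.16, adjusted p = 0.0495), and without both libraries with a reversed length trend (-0.19, adjusted p = 0.00211).

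Cdkn1a encodes p21, which inhibits cyclin-dependent kinases and arrests the cell cycle, and is the best known p53 target. The gene lies on chromosome 17 (GRCm38, 29090976 to 29100727, plus strand) and overlaps an antisense transcript, AC167363.2, whose reads could not be separated here because the strand setting of the counting is not given in the sources used here. Cdkn1a stood at 211, 223 and 212 TPM in the parental line, at 247, 268 and 283 TPM in MC38-LM3a, then at 251, 262 and 266 TPM in MC38-LM3b. Every derivative library was above every parental library. The ratio of mean TPM was 1.24 in MC38-LM3a (log2 fold change 0.30 ± 0.06 SE, adjusted p = 0.00471), against 1.20 in MC38-LM3b (0.27 ± 0.06, adjusted p = 0.00602). In MC38-LM3b this was close to the general shift, at the 56.8th percentile of all tested genes. The corrected values were 0.29 in MC38-LM3a, then 0.16 in MC38-LM3b (adjusted p = 0.0277). With each library centred on its median, the value in MC38-LM3b was 0.04 and not called (adjusted p = 0.667).

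Ccng1 encodes cyclin G1, which takes part in growth control and in the feedback on p53 through MDM2. It lies on chromosome 11 (GRCm38, 40748552 to 40755311, minus strand), and its promoter holds the element shown above. Its level was 242, 231 and 198 TPM in the parental line, 342, 348 and 376 TPM in MC38-LM3a, then 379, 373 and 383 TPM in MC38-LM3b. Even the lowest derivative library was far above the highest parental one. The ratio of mean TPM was 1.59 in MC38-LM3a (log2 fold change 0.67 ± 0.08 SE, adjusted p = 1.21e-04), against 1.69 in MC38-LM3b (0.76 ± 0.08, adjusted p = 4.05e-05), with corrected log2 fold changes of 0.62 and 0.51. It had the smallest adjusted p of the members in both comparisons on deposited values.

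Btg2 encodes an antiproliferative protein that promotes the removal of mRNA poly(A) tails, and lies on chromosome 1 (GRCm38, 134075170 to 134079120, minus strand). It was measured at 9.68, 8.65 and 6.71 TPM in MC38-P, at 9.77, 9.18 and 12.3 TPM in MC38-LM3a, and at 14.0, 13.9 and 12.65 TPM in MC38-LM3b. The parental and MC38-LM3a libraries overlapped, and every MC38-LM3b library was above both. The log2 fold change was 0.65 ± 0.14 (SE, adjusted p = 0.00484) in MC38-LM3b, and 0.48 after the correction. In MC38-LM3a it was 0.29 (adjusted p = 0.166), and 0.27 after the correction (adjusted p = 0.0274). It was also called there with quantile normalization (adjusted p = 0.00680) and median centring (adjusted p = 0.0113). Of 4 other genes of the BTG and TOB family that were examined, Btg3 was higher in both derivatives (0.28 and 0.44, corrected 0.24 and 0.24) and Tob2 was lower in both (-0.62 and -0.36, corrected -0.58 and -0.57). Btg1 and Tob1 were not called in either on deposited values, but Tob1 was lower in both after the correction (-0.24, adjusted p = 0.00641, and -0.23, adjusted p = 0.00856).

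Mdm2 encodes the ubiquitin ligase that degrades p53 and is itself a p53 target, which closes the feedback loop. It lies on chromosome 10 (GRCm38, 117688875 to 117710758, minus strand). The level was 84.3, 77.5 and 67.4 TPM in MC38-P, 92.6, 99.9 and 123 TPM in MC38-LM3a, and 129.97, 129 and 132 TPM in MC38-LM3b. The 3 lines did not overlap, with MC38-P lowest and MC38-LM3b highest. The ratio of mean TPM was 1.38 in MC38-LM3a (log2 fold change 0.45 ± 0.11 SE, adjusted p = 0.0101), against 1.71 in MC38-LM3b (0.77 ± 0.11, adjusted p = 3.29e-04). The corrected changes were 0.41 and 0.56, both called.

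Trp53inp1 encodes a stress protein that promotes p53 activity and cell death, and lies on chromosome 4 (GRCm38, 11156431 to 11174379, plus strand). Its level was low, at 7.88, 6.89 and 4.98 TPM in MC38-P, 9.50, 9.23 and 13.65 TPM in MC38-LM3a, and 13.3, 13.8 and 14.1 TPM in MC38-LM3b. Parental and derivative libraries did not overlap, but MC38-LM3a replicate 3 was within the range of MC38-LM3b. It showed the largest rise of the members in MC38-LM3b, with a ratio of mean TPM of 2.09 and a log2 fold change of 0.98 ± 0.17 (SE, adjusted p = 0.00127). In MC38-LM3a the log2 fold change was 0.64 ± 0.17 (adjusted p = 0.0184), and this call was lost when only the 2 lines compared were fitted (adjusted p = 0.0605) and with the replicate number as a block (adjusted p = 0.0599). The corrected changes were close to each other, 0.64 in MC38-LM3a, against 0.68 in MC38-LM3b.

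Relating the targets to Trp53 within each library leaves out any scale shared by both genes. The ratio of Mdm2 to Trp53 TPM was 0.159 to 0.187 in the parental line, 0.226 to 0.256 in MC38-LM3a, then 0.291 to 0.304 in MC38-LM3b, again with no overlap. The ratio of Ccng1 to Trp53 was 0.465 to 0.535 in MC38-P, against 0.783 to 0.885 in MC38-LM3a, then 0.840 to 0.886 in MC38-LM3b. For Cdkn1a the ratios were 0.468 to 0.499, 0.590 to 0.684 and 0.587 to 0.589. All 6 derivative libraries lay above all 3 parental libraries for each of these 3 targets, including both libraries with a reversed length trend. The ratio was taken for these 3 targets only, all called higher in both derivatives on deposited values. It was not taken for the other members or for all genes, so no general share stands beside it.

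**Figure D3:**
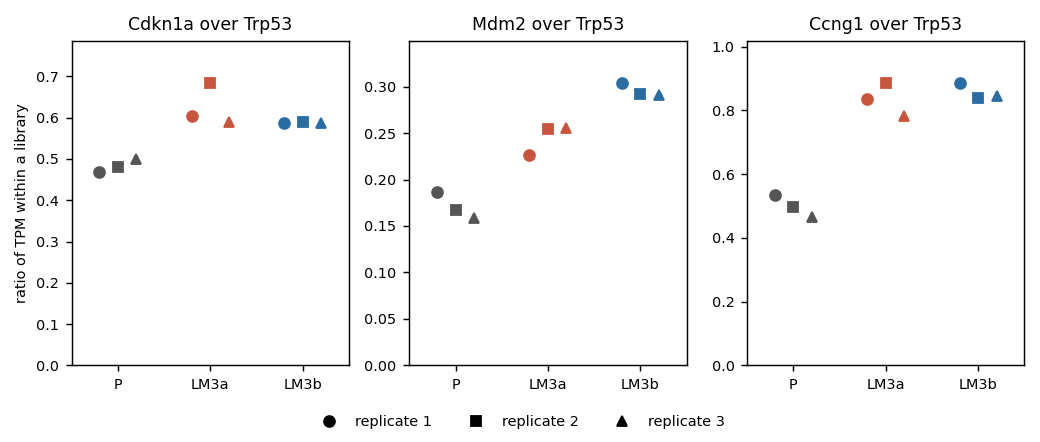
Ratio of the TPM of Cdkn1a, Mdm2 and Ccng1 to the TPM of Trp53 in the same library, with 1 point per replicate of the parental line and both derivatives. Each parental library lies below every derivative library, with Mdm2 at 0.159 to 0.187 in MC38-P and 0.291 to 0.304 in MC38-LM3b.

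Phlda3 encodes a protein with a pleckstrin homology domain that competes with the kinase AKT for membrane lipids, and lies on chromosome 1 (GRCm38, 135766119 to 135769136, plus strand). It was measured at 83.8, 80.1 and 81.1 TPM in MC38-P, 107, 104 and 92.9 TPM in MC38-LM3a, and 94.3, 96.4 and 101 TPM in MC38-LM3b. The parental libraries were tightly grouped and lay below all derivative libraries. The log2 fold change was 0.30 ± 0.07 (SE, adjusted p = 0.00788) in MC38-LM3a, then 0.25 ± 0.07 (adjusted p = 0.0150) in MC38-LM3b. Phlda3 has the shortest transcript of the members, at 1435 bases, and the corrected changes were larger, 0.40 and 0.28. In MC38-LM3b the call was lost with quantile normalization (0.12, adjusted p = 0.290) with median centring (0.02, adjusted p = 0.877), without MC38-P replicate 2 (adjusted p = 0.0512) and without MC38-LM3b replicate 3 (adjusted p = 0.0650). In MC38-LM3a it was lost with median centring alone (0.30, adjusted p = 0.0616).

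Zmat3 encodes an RNA-binding zinc finger protein that takes part in tumor suppression by p53, and lies on chromosome 3 (GRCm38, 32334792 to 32366014, minus strand). It stood at 19.5, 18.55 and 13.6 TPM in MC38-P, at 17.4, 18.1 and 28.7 TPM in MC38-LM3a, and at 25.3, 26.1 and 28.4 TPM in MC38-LM3b. Replicates 1 and 2 of MC38-LM3a were within the parental range, whereas replicate 3 was above all MC38-LM3b libraries. With 7797 bases it has the longest transcript of the members. In MC38-LM3b the log2 fold change was 0.61 ± 0.18 (SE, adjusted p = 0.0205), a call that was lost without MC38-P replicate 3 (0.46, adjusted p = 0.0684) or without MC38-LM3b replicate 2 or 3 (adjusted p = 0.0536 and 0.0699), and with the replicate number as a block (adjusted p = 0.0539). The corrected value in MC38-LM3b was 0.32 (adjusted p = 0.00241). In MC38-LM3a the change was 0.28 ± 0.18 and not called (adjusted p = 0.302). The correction gave 0.35 (adjusted p = 0.00158), while leaving out both libraries with a reversed length trend turned the value to -0.10 (adjusted p = 0.242).

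Aen encodes a nuclease that degrades DNA in apoptosis, and lies on chromosome 7 (GRCm38, 78895854 to 78911209, plus strand). Aen was not called on deposited values of all libraries. Its levels were 29.8, 29.65 and 25.1 TPM in MC38-P, 24.5, 25.8 and 29.1 TPM in MC38-LM3a, and 28.4, 30.3 and 30.4 TPM in MC38-LM3b, and all groups overlapped. The log2 fold changes were -0.09 (95% CI -0.30 to 0.13, adjusted p = 0.561) and 0.08 (95% CI -0.14 to 0.29, adjusted p = 0.530). The correction turned the value in MC38-LM3b to -0.15, with adjusted p = 0.0403, and gave -0.04 in MC38-LM3a (adjusted p = 0.562). Without both libraries with a reversed length trend, Aen was lower in MC38-LM3a (-0.23, adjusted p = 0.00453).

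Gdf15, which encodes a secreted stress cytokine of the TGF-beta family, was the one target with lower expression in both derivatives. It lies on chromosome 8 (GRCm38, 70629393 to 70632456, minus strand). The level was 6.15, 6.94 and 4.98 TPM in MC38-P, 3.12, 3.06 and 3.13 TPM in MC38-LM3a, and 2.89, 1.85 and 2.71 TPM in MC38-LM3b. The groups did not overlap, and this is the least abundant member of the derivatives. Mean TPM fell by 48.5% in MC38-LM3a (log2 fold change -0.77 ± 0.15 SE, adjusted p = 0.00335), whereas it fell by 58.8% in MC38-LM3b (-1.02 ± 0.15, adjusted p = 4.40e-04). The log2(TPM + 1) scale understates the change of a gene at this level. The corrected values were -0.69 and -1.01.

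Gdf15 is also induced by the integrated stress response, the program in which ATF4 raises genes of amino acid supply and stress recovery, so 10 genes of that response were examined beside it. In MC38-LM3a 2 were lower and the others were not called, and in MC38-LM3b 3 were higher and 3 lower. After the correction 1 was higher and 3 lower in MC38-LM3a, and the counts in MC38-LM3b were again 3 and 3. Over all genes 28% and 46.7% were called on deposited values, and 51.1% and 57.6% on corrected values. Atf4 was lower in both, at 403 ± 28.4 TPM (SD, n = 3) in the parental line, 232 ± 7.23 in MC38-LM3a, then 258 ± 5.81 in MC38-LM3b. Its log2 fold changes were -0.79 (adjusted p = 9.80e-06) and -0.64 (adjusted p = 3.47e-05). Atf4 and the BTG and TOB family gene Tob2 lie on chromosome 15, where the median of the other 463 tested genes was -0.52 in MC38-LM3a, against -0.31 in MC38-LM3b, and the part of the chromosome in their falls was not tested. Psat1, an enzyme of serine synthesis, was also lower in both (-0.22 and -0.33, corrected -0.26 and -0.50). The growth arrest and stress genes Ddit3 and Ppp1r15a were higher in MC38-LM3b, at 0.43 and 0.58, and not called in MC38-LM3a, at 0.09 and 0.11. Their difference between the derivatives was not called either (adjusted p = 0.119 for each). Whether Atf4 has a part in the level of Gdf15 was not tested.

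Between the derivatives, 0 members were called on deposited values by limma, where 0.0532% of all genes were, and 0 after the correction (0.207% of all genes). At an unadjusted p under 0.05, 2 members passed on deposited values, Mdm2 (0.32, 95% CI 0.08 to 0.56, adjusted p = 0.119) and Btg2 (0.35, 95% CI 0.03 to 0.67, adjusted p = 0.120), and 6 passed on corrected values. Of all genes 38.1% passed this limit on deposited values and 22.5% on corrected values. The TPM ranges of the derivatives did not overlap for 3 members, Mdm2, Btg2 and Gdf15, where 42% of all genes did not overlap. Much of this comparison followed transcript length, with a Spearman correlation of 0.61 between length and log2 fold change across 11096 genes. The plot against length shows that Zmat3 and Trp53inp1, the members with the longest transcripts, lay at the value usual for their length, and their corrected differences were -0.03 and 0.05.

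The result depended on 1 library. Without MC38-LM3a replicate 3, 4 members were higher in MC38-LM3b than in MC38-LM3a, namely Mdm2 (0.43, adjusted p = 0.00399), Zmat3 (0.56, adjusted p = 0.00654), Trp53inp1 (0.51, adjusted p = 0.0149) and Btg2 (0.47, adjusted p = 0.0145), but 56.4% of all genes were then called. Leaving out MC38-P replicate 3 as well gave 8 members and 71.7% of all genes. The negative length trends of the remaining MC38-LM3a libraries were taken against a mean that held replicate 3. They do not describe these libraries without it, and the part of length in these calls was not tested.

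**Figure D4:**
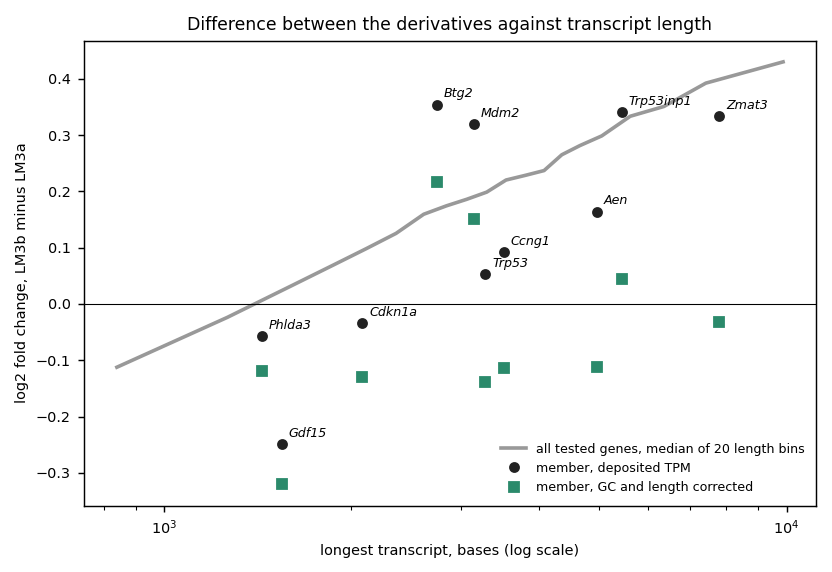
Log2 fold change of MC38-LM3b against MC38-LM3a for each member against the length of its longest transcript on a log scale, on deposited values (circles) and after GC and length correction (squares), with the median of all tested genes in 20 length bins as a line. Zmat3 is at 0.33 on deposited values and at -0.03 after the correction.

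Further p53 targets changed in both directions. A list of 52 further p53 targets was examined, of which 50 were listed and 48 tested. In MC38-LM3a 9 were higher and 7 lower, with a median log2 fold change of -0.04 (0.00 over all genes). In MC38-LM3b 19 were higher and 4 lower, with a median of 0.19 (0.21 over all genes). After the correction the counts were 17 higher and 15 lower in MC38-LM3a, and 17 higher and 13 lower in MC38-LM3b, or 32 and 30 of 48, where 51.1% and 57.6% of all genes were called. Between the derivatives 0 were called by limma on deposited or corrected values, and 17 and 15 of 48 passed an unadjusted p under 0.05, beside 38.1% and 22.5% of all genes. The share of called targets was thus near that of all genes on deposited values, with 16 of 48 in MC38-LM3a and 23 of 48 in MC38-LM3b against 28% and 46.7%.

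**Figure D5:**
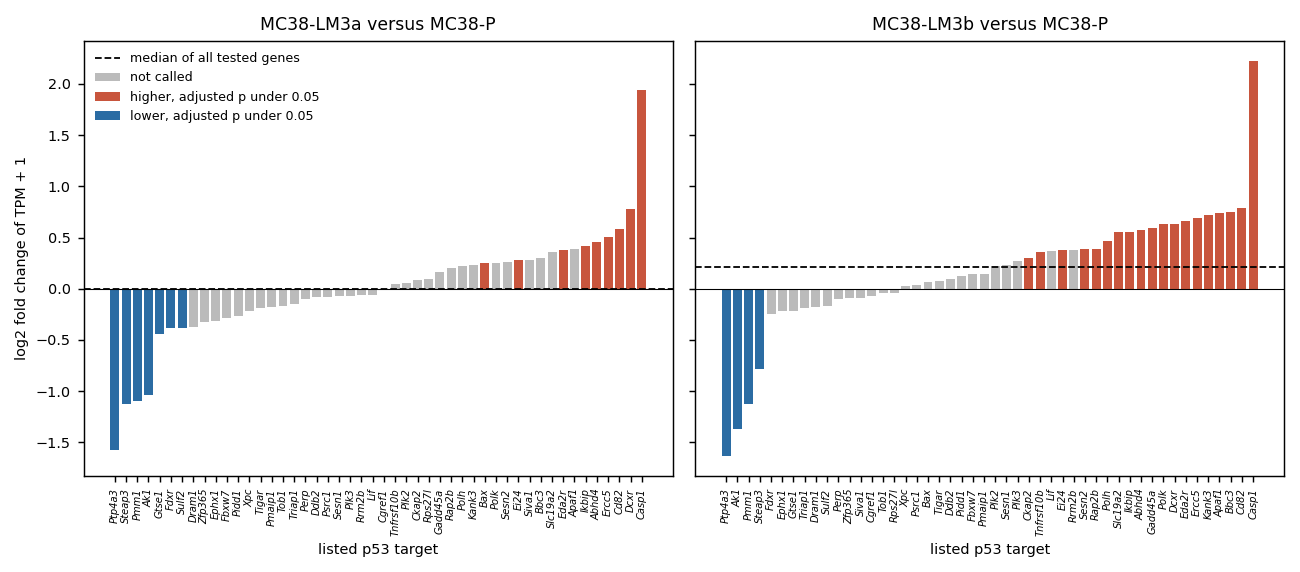
Log2 fold change of TPM + 1 for each of 48 further p53 targets in MC38-LM3a and MC38-LM3b against MC38-P, sorted by value, with called genes in color and the median of all tested genes as a dashed line. Casp1 is highest, at 1.94 and 2.23, and Ptp4a3 is lowest, at -1.57 and -1.63.

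The apoptosis genes among them held 9 tested genes, with 2 higher in MC38-LM3a, 4 higher in MC38-LM3b, and the rest not called, beside 14.1% and 35.6% higher over all genes. After the correction 4 were higher and 1 lower in MC38-LM3a, and 4 higher in MC38-LM3b, beside 26.5% and 29.3% higher over all genes. These shares also apply to the repair and metabolic targets. Ei24 was higher in both derivatives (0.28 and 0.38, corrected 0.24 and 0.23). Bbc3, which encodes the BH3-only protein PUMA, stood at 5.31 ± 0.121 TPM (SD, n = 3) in the parental line, 6.82 ± 0.757 in MC38-LM3a, then 9.62 ± 0.293 in MC38-LM3b. Its log2 fold change was 0.31 in MC38-LM3a (adjusted p = 0.0540), against 0.75 in MC38-LM3b (adjusted p = 3.39e-04). After the correction it was called in both, at 0.49 (adjusted p = 2.03e-04) and 0.79 (adjusted p = 6.65e-06). Bax was higher in MC38-LM3a (0.25, adjusted p = 0.0421) but not called in MC38-LM3b (0.07), and the difference between the derivatives was not called. Of 7 DNA repair targets 1 was higher in MC38-LM3a and 4 in MC38-LM3b, with Ercc5, a nucleotide excision repair nuclease, higher in both (0.50 and 0.69). After the correction 3 and 4 of them were higher. Of 9 metabolic targets 1 was higher and 3 lower in MC38-LM3a, and 3 higher and 2 lower in MC38-LM3b, with corrected counts of 3 higher and 5 lower, then 3 higher and 4 lower. Over all genes 13.8% and 11.2% were lower on deposited values, and 24.6% and 28.3% after the correction. Dcxr, a sugar reductase gene, was the metabolic target that was higher in both (0.77 and 0.64), at levels of 0.93 to 3.48 TPM.

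Among the 48 genes, 5 passed the additional fold change limit in MC38-LM3a, where 2.89% of all genes did, and 4 of them in MC38-LM3b, where 3.93% did. After the correction the same 5 passed in both, as Steap3 reached -1.03 in MC38-LM3b. Casp1, the inflammatory caspase that is also induced by interferon, rose from 7.27 ± 0.650 TPM (SD, n = 3) in the parental line to 30.8 ± 2.59 in MC38-LM3a, and to 37.7 ± 1.57 in MC38-LM3b (log2 fold changes 1.94 and 2.23). The phosphatase gene Ptp4a3 fell from 16.0 ± 1.11 TPM to 4.71 ± 0.370 and 4.46 ± 0.0458. Pmm1, a phosphomannomutase gene, fell from 82.8 ± 3.27 TPM to 38.1 ± 1.54 and 37.5 ± 1.60. Ptp4a3 and Pmm1 both lie on chromosome 15, whose general fall is given beside Atf4. The part of the chromosome in these falls was not tested. The adenylate kinase gene Ak1 (-1.04 and -1.37) and the ferrireductase gene Steap3 (-1.12 and -0.78) lie on chromosomes 2 and 1, whose medians in MC38-LM3a were 0.01. For the chromosomes of the 10 members, the median of the other genes was between 0.00 and 0.10 in MC38-LM3a and between 0.18 and 0.25 in MC38-LM3b.

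Upstream of p53, 19 regulators were tested, among them kinases that phosphorylate p53, ubiquitin ligases and acetyltransferases. In MC38-LM3a 3 were lower and the others were not called, and in MC38-LM3b 2 were higher and 2 lower, where 28% and 46.7% of all genes were called. After the correction 1 was higher and 5 lower in MC38-LM3a, and 1 higher and 4 lower in MC38-LM3b (51.1% and 57.6% of all genes). The acetyltransferase gene Ep300 was lower in MC38-LM3a (-0.61, adjusted p = 0.0491) and not called in MC38-LM3b (-0.11). After the correction it was lower in both (-0.47 and -0.40). Ep300 lies on chromosome 15, where the median of the other genes was -0.52 and -0.31. The part of the chromosome in its fall was not tested. Hipk2, a kinase that phosphorylates p53 for apoptosis, fell by 1.06 on the log2 scale in MC38-LM3a (adjusted p = 0.00313), then by 0.56 in MC38-LM3b (adjusted p = 0.0434), from 6.88 ± 1.97 TPM (SD, n = 3) in the parental line to 2.76 ± 0.887 and 4.22 ± 0.0100, and the corrected values were -0.98 and -0.87. Chek1, the checkpoint kinase of replication stress, was lower in both (-0.45 and -0.30, corrected -0.49 and -0.56). Mdm4, the partner of Mdm2 in the inhibition of p53, was not called on deposited values, with -0.40 (adjusted p = 0.189) and 0.13 (adjusted p = 0.621). After the correction it was lower in MC38-LM3a (-0.33, adjusted p = 0.0108) and turned to -0.14 in MC38-LM3b (adjusted p = 0.198). Of the p53 family, Trp63 did not exceed 0.07 TPM in any library, and Trp73 was not analysed here.

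Downstream, the cell cycle genes that p21 represses through the DREAM complex moved in both directions. Of 20 genes, 1 was higher and 7 lower in MC38-LM3a, and 5 were higher and 7 lower in MC38-LM3b. The correction gave 1 higher and 9 lower, then 4 higher and 13 lower. Over all genes 13.8% were lower in MC38-LM3a and 11.2% in MC38-LM3b on deposited values, and 14.1% and 35.6% were higher. After the correction 24.6% and 28.3% were lower, and 26.5% and 29.3% higher. The genes lower on deposited values were Aurka and the 6 genes of the replicative helicase, Mcm2 to Mcm7, in both derivatives. Mcm3 went from 246 ± 8.13 TPM (SD, n = 3) to 168 ± 14.7 and 175 ± 3.77 (log2 fold changes -0.55 and -0.49), whereas the mitotic cyclin Ccnb2 rose (0.41 and 0.40). The proliferation gene Mki67 was not called, at -0.05 and 0.42 (adjusted p = 0.867 and 0.0857). Of the other cyclin-dependent kinase inhibitors, Cdkn2d was higher in both derivatives, at 42.0 ± 0.509 TPM in the parental line, 65.5 ± 2.98 in MC38-LM3a, then 70.4 ± 4.10 in MC38-LM3b (0.63 and 0.73). Cdkn1b and Cdkn2c were higher in MC38-LM3b (0.48 and 0.35) and not called in MC38-LM3a (0.17 and 0.15), and neither was called between the derivatives. After the correction Cdkn1b lost its call in MC38-LM3b (0.21, adjusted p = 0.0660), and Cdkn2c was called in both (0.21 and 0.23).

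As TPM is corrected for length, levels were set side by side between genes within a line. The length trends within MC38-P and MC38-LM3a, and those of MC38-LM3b against both other lines, limit this comparison. In MC38-P the order was Trp53 (447 ± 20.3 TPM, SD, n = 3), Ccng1 (223 ± 22.9), Cdkn1a (215.5 ± 6.77), Phlda3 (81.7 ± 1.91), Mdm2 (76.4 ± 8.53), Aen (28.2 ± 2.68), Zmat3 (17.2 ± 3.19), Btg2 (8.35 ± 1.51), Trp53inp1 (6.58 ± 1.47) and Gdf15 (6.02 ± 0.986). The neighbours Ccng1 and Cdkn1a, Phlda3 and Mdm2, Btg2 and Trp53inp1, and Trp53inp1 and Gdf15 overlapped in their parental libraries. In the derivatives Ccng1 stood clearly above Cdkn1a, at 355 ± 18.1 against 266 ± 18.0 TPM in MC38-LM3a, then 378 ± 4.90 against 260 ± 7.74 TPM in MC38-LM3b. Mdm2 stood above Phlda3 in every MC38-LM3b library, at 130.4 ± 1.13 against 97.2 ± 3.30 TPM.

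Genes with a pattern most like those of Trp53 and Cdkn1a were sought among 8217 tested genes with a mean of at least 10 TPM, by the Pearson correlation of log2(TPM + 1) over the 9 libraries. For Trp53 they were Cdk8 (r = 0.96), Tex10 (0.96) and Cmtr2 (0.95), and for Cdkn1a they were Ints11 (0.97), Aldh4a1 (0.96) and Sbds (0.95). These values are a description over libraries that share their line and their length trend. On corrected values none of the 3 genes nearest to Trp53 was kept, and Ints11 was the only one kept for Cdkn1a.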

How the data were processed

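Poly(A) RNA of 9 MC38 cultures was sequenced on the DNBSEQ platform. The authors deposited TPM per gene, rounded to 2 decimals. The submitters' processing notes name HISAT and GRCm39. The quantification tool and annotation are not given in the sources used here. The study's methods name DESeq2, which could not be run without counts. Groups were taken from the sample labels, and p-values measure the spread between these replicates.

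The log2(TPM + 1) values computed from the deposited TPM were fitted in R 4.3.3 with limma 3.58.1 (all 9 libraries, trended empirical Bayes, Benjamini-Hochberg adjustment over all tested genes). Corrected values had a loess fit of span 0.3 on GC content and transcript length (GENCODE M21, 98.3% of tested genes) removed from each library. Coordinates and promoter sequences are those of GRCm38, not of the build of the files. The procedure was tested on simulated data, but the outcome is not given here and no call rests on it. Members and gene lists were chosen with earlier results of these data known. Named were all members, listed targets and regulators with an absolute log2 fold change above 1, the largest rise and fall of each list among genes called in both derivatives, and the 3 genes most like Trp53 and Cdkn1a. Other list genes in the text were chosen after their values were seen. The lists covered p53 regulators and family, p53 targets by function, cyclin-dependent kinase inhibitors, integrated stress, DREAM targets, the BTG and TOB family, and markers of epithelial cells, hepatocytes, macrophages, T cells, endothelium and stellate cells. Summed endothelial markers did not exceed 1.9 TPM, and summed stellate and fibroblast markers were 16.9 to 23.0 TPM in the parental line, 6.69 to 9.76 in MC38-LM3a, then 9.05 to 10.2 in MC38-LM3b. Of these Col1a1 (-1.55 and -1.48) and Acta2 were lower in both derivatives, and Pdgfrb was higher in MC38-LM3b (0.88) and, after the correction, in MC38-LM3a too (0.38). Proteomics, metabolomics and single-cell data were not analysed here.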

Additional observations from a re-analysis of the deposited data

How the results depend on the processing

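Alternatives changed the pseudocount (0.1 or 0.5), the filter (none or 5 TPM, which removed Gdf15), the scaling, the libraries fitted and a block for the replicate number. Of 597 values, 537 kept their direction and side of the threshold, 12 lost and 24 gained a call, and 24 changed sign. The numbers do not pair the samples, as seen in what remained of each library after the mean of its line was removed gene by gene. These remainders correlated at -0.34, -0.17 and -0.66 between MC38-LM3a and MC38-P libraries with the same number, and below 0.1 in the other comparisons. With the replicate block 5 members were called in MC38-LM3a and 7 in MC38-LM3b against MC38-P, with the block and the GC and length correction 8 and 9, and 0 between the derivatives in both fits. Against MC38-P, 19.5% and 34.5% of all genes were called with the block, and 47.4% and 53.9% with the block and the correction. Between the derivatives the shares were 0.0177% and 0.0451%.

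Of the further p53 targets, 16 were called in MC38-LM3a against MC38-P. The count was 10 with only 2 lines fitted and with the block, 32 with the correction (with and without the block), 27 with quantile normalization, 28 with median centring, and 34 without replicate 3 of both MC38-P and MC38-LM3a, an alternative chosen after seeing the data, and leaving out 1 library gave 11 to 18. The share of all genes called moved too, from 28% to 18.6% with only 2 lines fitted and 19.5% with the block. It was 51.1% with the correction, 47.4% with the correction and the block, 42% with quantile normalization and 40% with median centring. Without both libraries it was 63.6%, and leaving out 1 library gave 18.6% to 37.4%. Between the derivatives, leaving out 1 library gave 0 to 4 members and 0 to 26 further targets, and leaving out both gave 8 and 38. The upper ends of these ranges were those without MC38-LM3a replicate 3, where 56.4% of all genes were called. Without both libraries 71.7% of all genes were called.

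Changes of sign in MC38-LM3a against MC38-P were limited to Zmat3 without both libraries (-0.095, and 0.0577 to 0.4017 with 1 library left out). In MC38-LM3b against MC38-P, Trp53 was 0.0111 without MC38-P replicate 2 and 0.0053 without MC38-LM3b replicate 1 (range over single libraries left out -0.0533 to 0.0111). Aen was -0.155 with the correction (with and without the block), -0.1484 with quantile normalization, -0.1466 with median centring, and -0.0021 without MC38-P replicate 3 or both libraries (range -0.0021 to 0.1183). Between the derivatives, the correction (with and without the block) gave -0.1378 for Trp53, -0.1138 for Ccng1, -0.0325 for Zmat3 and -0.1117 for Aen. Median centring gave -0.1697 for Trp53, -0.1298 for Ccng1 and -0.058 for Aen, and quantile normalization gave -0.0549 for Aen. Trp53 was -0.0057 without MC38-LM3a replicate 2 (range -0.0057 to 0.1385), and Cdkn1a was 0.0105 without MC38-LM3a replicate 3 or both libraries (range -0.0864 to 0.0105). Of these, only Aen in MC38-LM3b with the correction alone was called. The causes were not tested. Depth is unknown, so counting error could not be given for low genes such as Gdf15.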
